A study of Mus musculus with 38 samples.

Results

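Of 33000 regions in which both urea ChIP-seq peak lists for SATB1 in mouse thymocytes held a peak, 32576 shared no base with either standard ChIP-seq list. Of 21636 regions in which both standard lists held a peak, 21305 shared no base with either urea list. These 2 sets, called urea-only and standard-only regions here, were taken from the 159253 peaks of 4 lists, out of 698638 peaks in all lists of the series that were used, and an overlap of 1 bp was enough to count as shared. How many regions placed at random would share no base was not computed, so the size of these counts is not a result about the methods. Urea-only regions were AT-rich, lay mostly far from start sites and carried short words of A and T letters. Standard-only regions had a lower median AT content than the genome. They stood beside 90.3% of the T-cell genes examined, against 55.9% of all protein-coding genes and 96.0% of 25 housekeeping genes. Of the standard-only summits, 39.7% lay within 1 kb of a start site.

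The 4 samples were thymocytes of Satb1 wild-type C57BL/6 mice, labelled as postnatal day 13, although for standard replicate 1 the title says 6 weeks. Both urea samples used the rabbit polyclonal antibody 1583D against SATB1, with 4 µl in replicate 1 and 2 µl in replicate 2, and they carry the same experiment number in their titles. Standard replicate 1 used the Abcam monoclonal ab109122 and standard replicate 2 used 1583D, and their titles also give 15 and 150 seconds, a setting the labels do not explain. Within the standard method the replicate is therefore confounded with the antibody, the time in the title and perhaps the age, and these cannot be told apart. Between the methods the chromatin preparation differs in every sample, and the antibody in 1 of them. The urea lists held 45049 and 38882 peaks and the standard lists held 48175 and 27147, with replicate 1 first in each case. The lists give no read counts, so the depth behind them is unknown, and libraries from Satb1-/- thymocytes and inputs were not analysed here.

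SATB1 is a nuclear protein that is abundant in thymocytes and is needed for normal T-cell development. It was first known for binding base-unpairing regions, or BURs, stretches of DNA that open easily under strain. The paper describes a typical BUR as several short segments close together, each with only A, T and C on 1 strand. In standard ChIP-seq, crosslinked chromatin is sheared as a whole and precipitated with an antibody. In urea ChIP-seq, crosslinked chromatin is first spun through urea, so that proteins not crosslinked to DNA are left behind before shearing. The comparison asks which SATB1 peaks appear with only 1 of these preparations, and what DNA and which genes lie there.

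The sequences below are shown because they carry the contrast between the sets. The first 3 are the urea-only regions with the highest enrichment in the lower of the 2 replicates, at chr17:72985064-72985363 between genes near Alk, at chr1:32546523-32546822 in an intron of Khdrbs2 and at chr12:103787549-103787848 between genes near Chga. The next 2 are the most enriched urea-only regions of Satb1, in an intron at chr17:51937434-51937733, and of Runx1, in an intron at chr16:92750443-92750742. All are 300 bases around the summit on the plus strand of NCBIM37 (mm9). Capitals mark the words TAATAA as well as TTAATA as well as ATTAAT on either strand, overlaps included, the 3 words of 6 letters whose share in urea-only regions exceeded that in genome windows most.
Urea-only, near Alk: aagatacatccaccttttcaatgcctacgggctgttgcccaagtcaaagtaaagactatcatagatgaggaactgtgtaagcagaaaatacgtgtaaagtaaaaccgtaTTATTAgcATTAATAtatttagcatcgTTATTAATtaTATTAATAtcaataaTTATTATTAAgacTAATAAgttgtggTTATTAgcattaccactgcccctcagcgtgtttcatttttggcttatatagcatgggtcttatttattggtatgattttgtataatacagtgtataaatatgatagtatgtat
Urea-only, Khdrbs2 intron: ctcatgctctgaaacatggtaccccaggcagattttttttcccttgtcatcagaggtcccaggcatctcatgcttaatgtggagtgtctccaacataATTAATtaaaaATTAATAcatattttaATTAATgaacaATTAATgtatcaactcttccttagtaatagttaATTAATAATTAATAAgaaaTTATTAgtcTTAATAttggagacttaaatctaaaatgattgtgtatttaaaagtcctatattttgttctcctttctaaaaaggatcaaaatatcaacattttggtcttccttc
Urea-only, near Chga: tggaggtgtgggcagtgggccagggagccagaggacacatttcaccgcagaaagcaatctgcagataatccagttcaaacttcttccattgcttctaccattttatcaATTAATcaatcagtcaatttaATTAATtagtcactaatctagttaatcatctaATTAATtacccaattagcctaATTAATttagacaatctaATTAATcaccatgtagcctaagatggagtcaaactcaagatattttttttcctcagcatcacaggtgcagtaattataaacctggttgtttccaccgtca
Urea-only, Satb1 intron: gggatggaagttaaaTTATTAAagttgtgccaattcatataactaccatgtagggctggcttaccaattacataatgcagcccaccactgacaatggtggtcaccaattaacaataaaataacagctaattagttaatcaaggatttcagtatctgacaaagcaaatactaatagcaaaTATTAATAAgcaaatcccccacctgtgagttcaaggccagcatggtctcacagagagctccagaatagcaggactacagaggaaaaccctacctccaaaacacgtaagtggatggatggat
Urea-only, Runx1 intron: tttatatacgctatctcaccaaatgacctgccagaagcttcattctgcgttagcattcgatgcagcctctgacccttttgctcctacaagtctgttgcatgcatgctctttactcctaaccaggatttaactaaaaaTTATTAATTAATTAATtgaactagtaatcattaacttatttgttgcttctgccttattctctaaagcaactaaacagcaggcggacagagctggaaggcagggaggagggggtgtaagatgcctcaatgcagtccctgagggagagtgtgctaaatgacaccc
The region near Alk held TAATAA 6 times and TTAATA 5 times. The region near Chga held neither, but held ATTAAT 5 times. AT content was 69.7% near Alk, 71.3% in Khdrbs2, 63.3% near Chga, 60.3% in Satb1 and 57.3% in Runx1. The regions in the T-cell genes were thus less AT-rich than the 3 strongest regions of the set, and each still held at least 1 copy of all 3 words.

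For comparison, the most enriched standard-only regions of the same Satb1 and Runx1 genes and of Cd8a, which encodes a coreceptor chain, are given next, also as 300 bases of NCBIM37 on the plus strand. They lie at the Satb1 start at chr17:51972344-51972643, in a Runx1 intron at chr16:92801861-92802160 and upstream of Cd8a at chr6:71319462-71319761. Capitals mark the RUNX motif TGTGGT, the ETS motif CCGGAA, the GC box GGGCGG and the E-box CAGCTG on either strand.
Standard-only, Satb1 start: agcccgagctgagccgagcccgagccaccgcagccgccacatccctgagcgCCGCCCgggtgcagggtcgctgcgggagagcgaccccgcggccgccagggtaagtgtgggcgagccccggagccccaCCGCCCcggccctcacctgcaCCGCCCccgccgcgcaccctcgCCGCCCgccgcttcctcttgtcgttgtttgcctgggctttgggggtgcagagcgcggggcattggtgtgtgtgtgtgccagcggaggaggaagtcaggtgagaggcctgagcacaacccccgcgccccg
Standard-only, Runx1 intron: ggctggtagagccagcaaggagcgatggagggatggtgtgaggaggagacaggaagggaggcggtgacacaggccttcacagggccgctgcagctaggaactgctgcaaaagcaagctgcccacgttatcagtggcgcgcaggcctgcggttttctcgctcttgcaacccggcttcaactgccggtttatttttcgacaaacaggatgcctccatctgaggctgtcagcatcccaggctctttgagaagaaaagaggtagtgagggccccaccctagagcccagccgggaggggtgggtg
Standard-only, upstream of Cd8a: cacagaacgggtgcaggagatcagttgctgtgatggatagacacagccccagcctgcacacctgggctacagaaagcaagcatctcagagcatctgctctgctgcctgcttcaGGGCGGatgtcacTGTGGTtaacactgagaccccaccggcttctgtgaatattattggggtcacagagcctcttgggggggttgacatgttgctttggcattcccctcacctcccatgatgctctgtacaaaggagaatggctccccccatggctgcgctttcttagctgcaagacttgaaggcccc
The Satb1 start held GGGCGG 4 times, had an AT content of 25.7% and held 33 CpG dinucleotides. The Cd8a region held GGGCGG and TGTGGT once each at an AT content of 44.7%. The Runx1 region held none of the 4 words, at 40.3% AT and 12 CpG dinucleotides.

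The standard-only region with the highest enrichment looked different again, and it is shown because it carries a simple repeat. It lies in an intron of Cdrt4 at chr11:62768061-62768360, and 300 bases of the plus strand of NCBIM37 are given. Capitals mark the longest tandem repeat of units of up to 6 bases.
Standard-only, Cdrt4 intron: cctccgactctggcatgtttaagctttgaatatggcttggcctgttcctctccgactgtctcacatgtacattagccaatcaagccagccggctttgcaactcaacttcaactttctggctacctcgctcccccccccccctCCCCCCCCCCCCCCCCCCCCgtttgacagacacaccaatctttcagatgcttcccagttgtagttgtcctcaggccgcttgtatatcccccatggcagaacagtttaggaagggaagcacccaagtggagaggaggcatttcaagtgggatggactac
The Cdrt4 repeat was a run of 20 C. Enrichment there was 57.9 in replicate 1 and 57.9 in replicate 2, as the fold of the signal at the summit over the local background. The regions of rank 4 and 5 lay between genes 135 kb from the Rab28 start, at 55.8 and 43.7, and in an intron of Ppp2r2b, at 47.5 and 43.3. Among urea-only regions, the 3 highest had 36.2 and 35.5 near Alk, 34.6 and 34.8 in Khdrbs2, and 34.8 and 34.6 near Chga. They were followed by a region 25.4 kb from the Ly6e start, at 34.2 and 34.1, and a region in an intron of Dennd5b, at 34.6 and 34.1. All 5 urea-only regions overlapped a peak of the BUR reference map, a list of sites bound by SATB1 protein on purified DNA. Of the 100 regions of highest enrichment, 100% of the urea-only and 30.0% of the standard-only ones overlapped that map.

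Urea-only regions took up 72.4% of the peaks of urea replicate 1 and 83.8% of those of replicate 2. Standard-only regions took up 44.6% of the peaks of standard replicate 1 and 83.0% of those of replicate 2, so the larger standard list held many peaks that the smaller one did not. Of the peaks of standard replicate 1, 26161 (54.3%) were in no other of the 4 lists. Those had a median AT content of 49.5%, and 18.3% lay within 1 kb of a start site. The 4174 peaks found in standard replicate 2 alone had a median AT content of 57.5%, and 7.18% were at start sites. The peaks found in a single urea list, 11948 and 5779 of them, had median AT contents of 68.8% and 67.4%, close to those of the shared regions.

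Within the sets, urea-only regions were 411 bp long at the median, with a median enrichment of 9.35 in replicate 1 and 8.58 in replicate 2, with a range from 1.64 to 36.2 in replicate 1. Standard-only regions were 511 bp long, with a median enrichment of 8.77 and 6.36, with a range from 2.00 to 57.9 in replicate 1. Enrichment is relative to each sample's own background and is not scaled between samples. The summits of the replicates were a median of 22 bp apart in urea-only and 46 bp apart in standard-only regions. Across urea-only regions the log2 enrichments of the replicates had a Pearson r of 0.86 (Spearman rho 0.83, n = 32576), and across standard-only regions 0.66 (rho 0.64, n = 21305). These correlations run over regions of the same pair of libraries and are a description.

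The rule asks for no shared base, so some members lay close to peaks of the other method. The nearest standard peak was a median of 76.7 kb from a urea-only region, and 85 urea-only regions lay within 100 bp of one. The nearest urea peak was a median of 33.0 kb from a standard-only region. At the other side of the threshold, 424 urea regions and 331 standard regions were left out for an overlap, some of which shared as little as 2 bp. The 424 had a median AT content of 62.8% and the 331 of 55.1%, between the values of the 2 sets.

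The sets differed in where they lay along genes. Of the urea-only summits on chromosomes 1 to 19, X and Y (n = 32537), 0.999% were within 1 kb of a protein-coding start site, 0.0522% in a coding exon further away, 0.891% in other exon sequence, 33.0% in an intron and 65.1% between genes. The same classes take up 2.3%, 1.14%, 1.35%, 34.7% and 60.5% of the genome's bases, so start sites and exons took smaller shares than in the genome, and introns and sequence between genes took shares close to it. Of the standard-only summits (n = 21154), 39.7% were at a start site, 1.13% in a coding exon, 1.33% in other exon sequence, 26.2% in an intron and 31.7% between genes. Over all peaks, the share at start sites was 1.08% and 1.12% in the urea lists and 27.8% and 35.7% in the standard lists. The urea lists were thus below both standard lists with no overlap. The difference was -30.7 percentage points (urea 1.10% ± 0.0334, standard 31.8% ± 5.55, SD, n = 2 lists each). An exact two-sided permutation test over the 4 lists gave p = 0.333, the smallest value this test can give for 2 lists against 2, so it cannot pass 0.05 here.

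**Figure D1:**
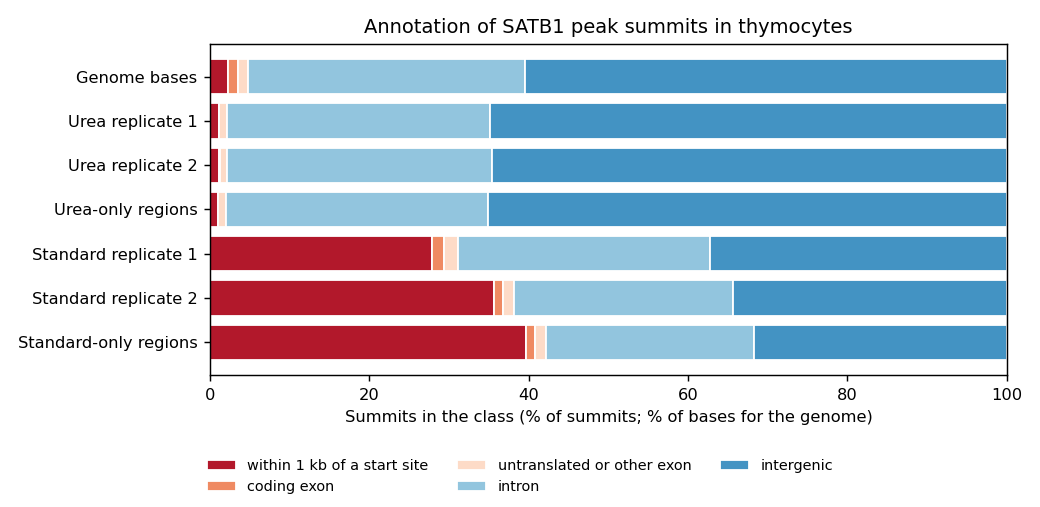
Share of summits in each annotation class (x axis, percent) for the 4 peak lists, the 2 sets of regions and the bases of the genome. The red segment, within 1 kb of a start site, is 0.999% of urea-only and 39.7% of standard-only regions, against 2.3% of the genome.

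Distance to genes showed the same contrast. The median distance from a summit to the nearest protein-coding start site was 108 kb for urea-only regions, 5.79 kb for standard-only regions and 55.5 kb for windows spaced evenly over the genome. Of urea-only summits, 51.5% were over 100 kb and 17.7% over 500 kb from a start site. Of standard-only summits, 7.82% were over 100 kb away and 0.487% over 500 kb. Per list, the median distance was 107 and 105 kb in the urea lists and 11.8 and 8.03 kb in the standard lists. The difference of 95.9 kb was larger than the spread between replicates, which had an SD of 1.81 kb for urea and 2.65 kb for standard, and the exact two-sided permutation test over the 4 lists again gave its smallest possible p of 0.333. The standard-only distance depended on the smaller list: without standard replicate 2 the rule kept 47663 standard-only regions in place of 21305, and their median distance was 11.7 kb.

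**Figure D2:**
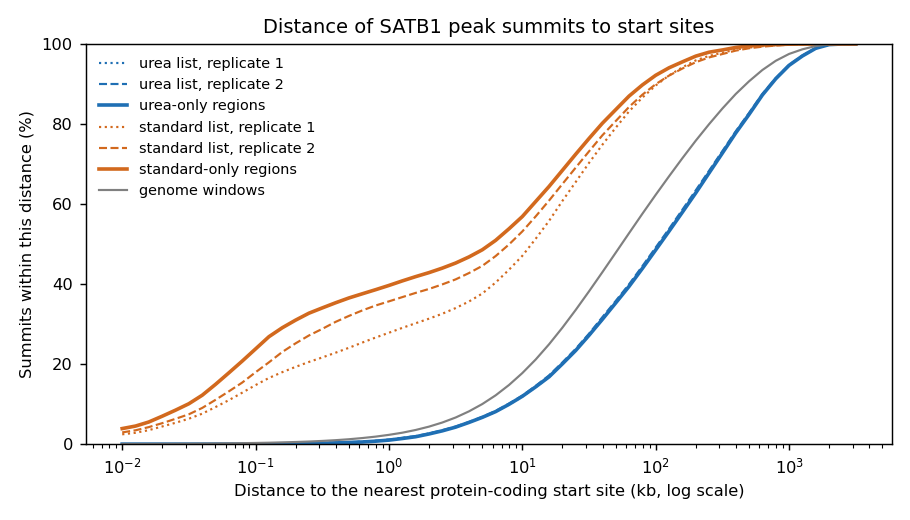
Cumulative share of summits (y axis, percent) within a distance of the nearest protein-coding start site (x axis, kb, log scale) for the 4 lists, the 2 sets and evenly spaced genome windows. The urea curves lie on top of each other below the genome windows, and the standard curves lie above them, with 48.5% of standard-only and 6.67% of urea-only summits within 5 kb.

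The AT content of a window of 150 bp on each side of the summit had a median of 69.1% in urea-only regions, with quartiles of 64.8% and 72.8%, and of 46.2% in standard-only regions, with quartiles of 36.5% and 52.5%. Genome windows of the same length had a median of 58.5%. At least 65% AT was reached by 74.6% of urea-only regions, 0.567% of standard-only regions and 17.8% of genome windows. Under 40% AT lay 32.4% of standard-only regions, 0.00307% of urea-only regions and 0.929% of genome windows. Per list, the median AT content was 68.8% in both urea lists, and 48.2% and 48.5% in the standard lists. The lists of the methods did not overlap, the difference was 20.4 percentage points, and the exact two-sided permutation test over the 4 lists gave p = 0.333. With the 3 tests on lists adjusted together by Benjamini-Hochberg, each adjusted p was 0.333 as well.

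The AT content also changed differently with distance from the summit. In urea-only regions the mean rose to 76.1% and 75.9% at the summits of replicates 1 and 2, from 60.8% at 800 to 1000 bp away. In standard-only regions it fell to 41.8% and 43.6% at the summits, from 53.7% at that distance. The genome mean was 58.2%. The flanks of urea-only regions were thus a little above and those of standard-only regions below it.

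**Figure D3:**
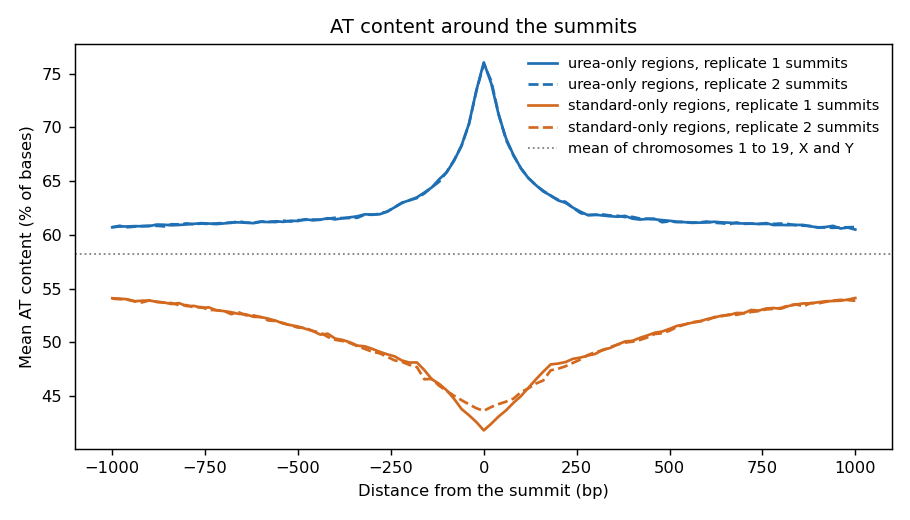
Mean AT content in steps of 20 bp (y axis, percent) against distance from the summit (x axis, bp) for the 2 sets, with the summits of each replicate drawn apart and the genome mean dotted. The urea-only curves form a narrow peak at 76.1% and 75.9%, and the standard-only curves form a broader trough at 41.8% and 43.6%.

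Words of 6 letters were counted over the same windows, on both strands. TAATAA was present in 88.7% of urea-only regions, 6.91% of standard-only regions and 22.3% of genome windows, the largest difference between urea-only regions and the genome among all words. Part of such a difference comes with AT content, and among genome windows of at least 65% AT, 44.4% held TAATAA. The word TTAATA followed with 82.7% of urea-only regions against 20.9% of genome windows and 43.1% of those AT-rich windows, and ATTAAT with 70.0% against 11.2% and 24.9%. Runs of the same base or of AT steps differed less. AAAAAA was in 42.1% of urea-only regions and 35.2% of genome windows, and ATATAT in 29.8% and 14.7%. The longest stretch without G, or without C, had a median of 34 bp in urea-only regions, 20 bp in standard-only regions and 27 bp in genome windows. A stretch of 50 bp or more was present in 12.5% of urea-only regions, 4.13% of standard-only regions and 8.62% of genome windows. At 100 bp or more the order differed, with 0.292%, 0.496% and 1.16%. These words were picked from these data, and a match is a description of letters.

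In standard-only regions the words that stood out were those of GC-rich start sites. GGGCGG, the GC box bound by Sp and Klf factors, was in 36.2% of standard-only regions, 0.670% of urea-only regions, 2.88% of genome windows and 11.8% of those under 50% AT. CpG dinucleotides numbered a median of 8 in standard-only windows and 1 in urea-only windows, and 45.1% of standard-only windows held 10 or more. Away from start sites the picture differed. In the 12760 windows of standard-only regions over 1 kb from a start site, the word with the largest difference from the genome was AGGAAG, which contains the GGAA core of ETS sites, at 52.0% against 30.0%. It was followed there by CAGGAA at 48.6%, by the E-boxes CACCTG at 37.2% and CAGCTG at 30.2%, and, further down, by the RUNX motif TGTGGT at 38.0%. Part of these differences comes with base composition. Among genome windows under 50% AT, AGGAAG was in 39.0%, CAGGAA in 34.1%, CACCTG in 29.8%, CAGCTG in 21.6% and TGTGGT in 21.2%, so the order of the words depends on the background. In the 8389 standard-only regions at start sites, TGTGGT was in 12.7% and CAGCTG in 17%, while GGGCGG was in 68.9% and CCGGAA in 34.2%. ETS, RUNX and E-protein factors are major regulators of thymocytes. Not all factor cores that were counted stood out. The GATA core AGATAA was in 10.3% of standard-only regions, 19.3% of genome windows and 28.8% of urea-only regions. The TCF1/LEF1 core CTTTGA was in 19.6%, 22.5% and 20.1%. These cores were not set against windows of like AT content. AGGNGGC, part of the CTCF motif, was in 35.1% of standard-only regions and 10.7% of genome windows, likewise without a background of like AT content. It was in 53.1% of standard-only regions with a thymocyte CTCF peak and in 30.4% of those without. At start sites 45.2% held it, and further away 28.5%.

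Standard-only regions within 1 kb of a start site and those further away were distinct in composition too. The former had a median AT content of 35.2%, a median of 26 CpG dinucleotides and a median length of 671 bp. The latter had a median AT content of 50.5%, 5 CpG dinucleotides and a median length of 430 bp. Their enrichment was alike, with medians of 9.27 and 8.37 in replicate 1 and 6.52 and 6.20 in replicate 2. The 325 urea-only regions at start sites did not share this composition: their median AT content was 67.8% and 83.7% held TTAATA, near the 82.7% of the urea-only regions elsewhere.

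The rule did not use the other lists of the series. The overlap of genome windows with those lists was not computed, so the shares below compare the 2 sets with each other only. The BUR reference map, with 232310 peaks on the main chromosomes, overlapped 80.1% of urea-only and 2.67% of standard-only regions. The urea CTCF list of thymocytes overlapped 0.187% of urea-only regions (61) and 20.9% of standard-only regions (4447). Both of these are single lists. Of urea-only regions, 92.7% were also in both urea SATB1 lists of brain and 22.7% in both of skin. Of standard-only regions, 0.366% were in both brain lists and 2.09% in both skin lists. The 6495 urea-only regions without a BUR were also mostly found in brain, at 73.2%. On the main chromosomes they had a median AT content of 62.8% against 70.4% with a BUR, and a median distance to a start site of 65.0 kb against 124 kb.

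Members also varied with their strength. When each set was ranked by the lower of its 2 enrichments and cut into 5 equal groups, the highest group of urea-only regions overlapped a BUR in 94.7% and the lowest in 70.5%. The overlap with both skin lists fell more steeply over the same groups, from 73.7% through 24.4%, 8.56% and 4.35% to 2.60%. AT content barely moved, from 69.8% to 68.8%, and TTAATA was in 85.3% of the highest and 81.0% of the lowest group. In standard-only regions the share at start sites was 43.4% in the highest and 33.0% in the lowest group. The ETS motif CCGGAA went from 25.5% to 13.4% and the CTCF overlap from 22.9% to 17.8%. The median length shortened from 518 to 339 bp in urea-only and from 599 to 389 bp in standard-only regions, a measure that moves with enrichment in peak calling.

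Tandem repeats were frequent among the strongest standard-only regions and rare in the set as a whole. At least 4 TTAGGG units in a row stood at 139 standard-only summits, and 50 of these were among the 100 standard-only regions of highest enrichment. They had a median enrichment of 19.8 in standard replicate 1 and 22.4 in replicate 2. The standard lists held 153 and 150 such summits, the urea lists held 0 of 44926 and 0 of 38771, and 1 of 88214 evenly spaced genome windows held such a run. Tandem repeats of at least 30 bp were in 4.79% of all standard-only regions and 54.0% of the 100 highest. In urea-only regions the shares were 2.53% and 14.0%, so the strongest regions had more of them in both sets. Of genome windows, 5.27% held one. The repeat was chosen after its sequence was seen.

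Along the chromosomes the numbers of the 2 sets tended to run in opposite directions, though not on every chromosome. Urea-only regions numbered 12.3 per Mb over the genome and standard-only regions 7.97 per Mb. Chromosome 11, which has 13.6 protein-coding genes per Mb, held 9.67 urea-only and 14.1 standard-only regions per Mb. Chromosome 3, with 6.62 genes per Mb, held 15.2 and 6.61. The X chromosome, with 5.59 genes per Mb, held 10.6 and 2.31, both below the values of the genome. Chromosome 7, with 13.6 genes per Mb, held 8.12 and 8.36, without the contrast of chromosome 11. In 1 Mb bins with no protein-coding gene (n = 255) there were on average 23.2 urea-only and 0.600 standard-only regions. In bins with 20 genes or more (n = 299) there were 7.0 and 20.6. Across 2568 bins the numbers of the 2 sets had a Spearman rho of -0.56 with each other, of -0.62 (urea-only) and 0.70 (standard-only) with the number of genes. Neighbouring bins are not independent and share gene density and base composition, so these are descriptions. Urea-only regions were absent from 4.47% of all bins and standard-only regions from 26.2%.

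Near genes the 2 sets were counted in the gene body and up to 10 kb around it. Of 22367 protein-coding genes, 30.0% had a urea-only region there and 55.9% a standard-only region. Within 10 kb of the start of the gene the shares were 14.3% and 48.5%. Of the 113 T-cell genes on the lists, 38 (33.6%) had a urea-only region, close to the background, and 102 (90.3%) had a standard-only region, above it. At the start of the gene, 13 of 113 (11.5%) had a urea-only and 92 of 113 (81.4%) a standard-only region. Gene length moves with these counts. The T-cell genes had a median length of 23.5 kb against 15.4 kb for all genes, and the share of genes with a urea-only region went from 16.4% of genes under 10 kb to 92.1% of genes of 200 kb or more. For standard-only regions those shares were 40.0% and 55.7%.

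T-cell genes were not alone in having a standard-only region. Of 25 housekeeping genes, such as those of the proteasome and RNA polymerase, 24 (96.0%) had one, of 18 B-cell genes 13 (72.2%), of 23 neuronal genes 7 (30.4%) and of 24 keratinocyte genes 7 (29.2%). The lists separated further on standard-only regions over 1 kb from any start site. Of the T-cell genes, 89 (78.8%) had such a region and 47 (41.6%) had 3 or more, against 26.4% and 4.25% of all protein-coding genes. Of the housekeeping genes, 10 (40.0%) had one and 0 had 3 or more. For urea-only regions the same lists gave 33.6% of T-cell, 44.4% of B-cell, 39.1% of neuronal, 33.3% of keratinocyte and 20.0% of housekeeping genes, so they did not set T-cell genes apart. Peak lists hold no expression values, so the labelled cell type can be checked here only through such positions.

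**Figure D4:**
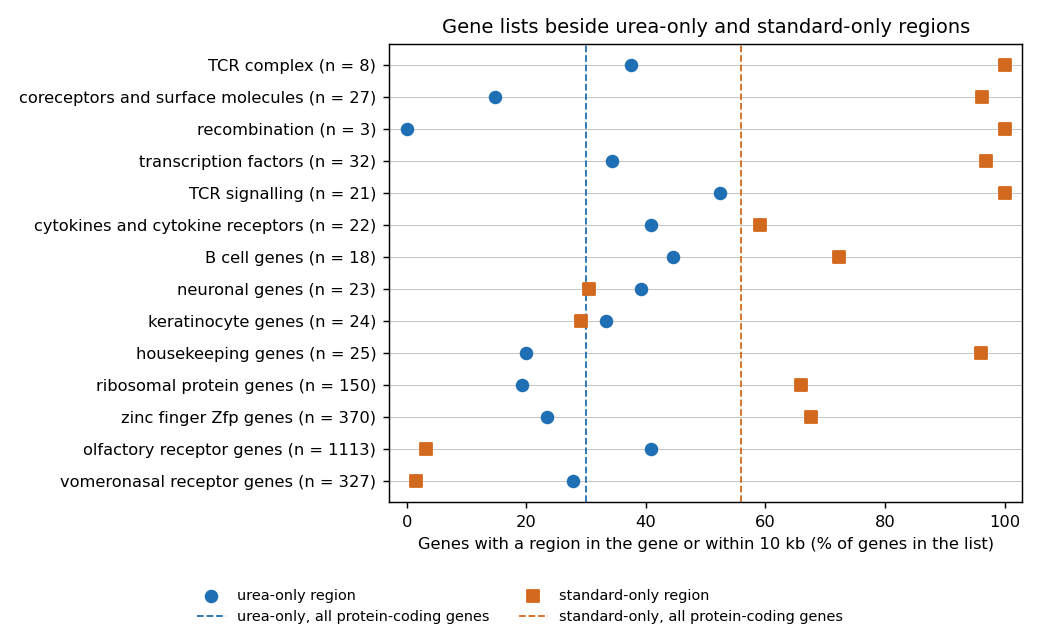
Share of genes in each list with a urea-only (circles) or standard-only (squares) region in the gene or within 10 kb (x axis, percent), with the shares over all protein-coding genes as dashed lines. The 5 T-cell lists other than cytokines reach at least 96.3% for standard-only regions and range from 0% to 52.4% for urea-only regions.

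Of the 8 genes of the T-cell receptor complex, all had a standard-only region and 3 (37.5%) had a urea-only region. The shares over all protein-coding genes were 55.9% and 30.0%. Cd3d and Cd3g, subunits that carry the signal of the receptor, shared a standard-only region in non-coding exon sequence of Cd3d, with enrichments of 14.0 and 11.9, and Cd247, the zeta chain, had one at its start with 9.15 and 8.22. A single urea-only region, at 6.10 and 7.26, lay 12.1 kb from the start of Cd3d and counted for both Cd3d and Cd3e. The other gene with a urea-only region was Ptcra, the pre-T alpha chain, with 14.3 and 13.8 in a region inside the neighbouring gene Cnpy3. All 3 recombination genes (Rag1, Rag2 and Dntt, which adds bases at the joints) had a standard-only region and 0 of 3 a urea-only region.

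Of 27 coreceptor and surface genes, 26 (96.3%) had a standard-only region, Cd7 being the exception, and 4 (14.8%) had a urea-only region. All protein-coding genes gave 55.9% and 30.0%. The strongest standard-only region stood at the start of Icos, a costimulatory receptor, at 19.6 and 13.4, and the next lay 12.9 kb from the start of the adhesion gene Cd2, at 14.7 and 11.6. The strongest urea-only region was in an intron of Cd44, an adhesion receptor of early thymocytes, 53.7 kb from its start, at 24.9 and 24.6. Ccr9, a thymic homing receptor, followed with 13.7 and 15.6 in an intron, and Ctla4, an inhibitory receptor, with 13.6 and 9.36 in a region 8.61 kb upstream.

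Of 32 transcription factor genes, 31 (96.9%) had a standard-only region, Id2 being the exception, and 11 (34.4%) had a urea-only region. With 55.9% and 30.0% of all protein-coding genes, the urea-only share was near the background. The strongest standard-only regions were in an intron of Bach2 (19.8 and 16.0), at the start of Tcf3, which encodes E-proteins (15.3 and 16.4), and in Notch1, the receptor that commits cells to the T lineage (15.7 and 11.9). The strongest urea-only regions were in introns of Ikzf3 (28.5 ± 0.749, mean and SD of 2 replicates) and Ikzf2 (24.5 and 20.2), members of the Ikaros family, and beyond the end of Tcf12 (21.8 and 24.8). The genes of this list with the most urea-only regions were Tcf12, which spans 268 kb and had 8, Rora, which spans 734 kb and had 7, Satb1, which spans 97.1 kb and had 6, and Tox, which spans 305 kb and had 5. Rora and Tox are named after their values were seen.

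Of 21 genes of T-cell receptor signalling, all had a standard-only region and 11 (52.4%) had a urea-only region. Over all protein-coding genes these shares were 55.9% and 30.0%. The signalling genes were long, with a median of 52.5 kb. Of all protein-coding genes of 50 to 200 kb, 68.3% had a standard-only and 59.0% a urea-only region. Standard-only regions stood at the starts of Lat (21.8 and 13.2), the adaptor of the receptor, and of the phosphatase gene Ptpn22 (16.1 and 12.6). Urea-only regions lay beyond the end of Nfkb1 (27.3 and 27.8) and in an intron of Rasgrp1 (23.7 and 26.1). At the start of the signalling genes, 20 of 21 (95.2%) had a standard-only region within 10 kb and 1 of 21 (4.76%) a urea-only region. The shares at the starts of all protein-coding genes were 48.5% and 14.3%.

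Of 22 genes of cytokines and their receptors, 13 (59.1%) had a standard-only region, near the 55.9% of all protein-coding genes, and 9 did not. Those without were Il2, Il4, Il5, Il10, Il13, Il17a, Il21 and Ifng, cytokines made by activated T cells, and the receptor gene Il1rl1. The strongest standard-only regions were in introns of receptor genes, Il12rb2 (17.7 and 13.4), Il18r1 (11.6 and 11.4) and Tgfbr2 (17.1 and 10.1). A urea-only region was found at 9 of the 22 genes (40.9%), against 30.0% of all protein-coding genes. Of these 9, Il10 had one 2.03 kb upstream of its start at 18.6 and 22.7, with an AT content of 79.4%. Il6ra had one 8.01 kb upstream at 22.6 and 25.5, and Ifngr1 one 1.17 kb upstream at 11.9 and 9.62. Il2 and Il5, named after their values were seen, had a urea-only and no standard-only region, with a lower enrichment of 5.20 and 7.37.

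At each of 13 genes with central roles in thymocytes, described whatever their values, the nearest standard-only region lay closer to the start than the nearest urea-only region. This order was not particular to them. Over all protein-coding genes the median distances were 11.65 kb (standard-only) and 50.4 kb (urea-only), and over housekeeping genes 0.107 kb and 69.8 kb. The share of all genes with this order was not computed. Satb1 itself had 9 standard-only and 7 urea-only regions within 100 kb of its start, and 7 or more urea-only regions were found there at 2.11% of all protein-coding genes. For 7 or more standard-only regions that share was 21.0%. Its nearest standard-only region was 0.122 kb from the start, at 6.35 and 5.59, and also overlapped a CTCF peak. Its nearest urea-only region was 7.89 kb into the gene, at 5.53 and 6.91, and its strongest was the intron region printed above, with a mean enrichment of 15.8 ± 1.74 (SD, n = 2), 35.0 kb from the start. Within Satb1 or 10 kb of it lay 6 urea-only regions.

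The recombinase genes Rag1 and Rag2 had a standard-only region 0.138 kb and 0.046 kb from their starts, at 6.44 and 3.59 for Rag1 and 5.59 and 6.12 for Rag2. The nearest urea-only region of both was the same one, 45.4 kb from Rag1 and 20.6 kb from Rag2, at 9.52 and 5.98. The coreceptor genes Cd4 and Cd8a had 12 and 17 standard-only regions within 100 kb of their starts and no urea-only region, the nearest of which lay 336 kb and 185 kb away. Bcl11b, Tcf7 and Ets1, factors of T-lineage commitment, likewise had 8, 14 and 12 standard-only regions and no urea-only region within 100 kb, and the nearest standard-only region of Ets1 was 20.1 kb from its start. Over all protein-coding genes, 29.4% had no urea-only region within that distance, so such an absence was common. For all 113 T-cell genes it was 23.0%. The number of standard-only regions within 100 kb of a start had a median of 3 over all protein-coding genes. That median was 8 over the T-cell genes and 7 over housekeeping genes, so high counts were not particular to T-cell genes.

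Gata3, Runx1, Runx3, Foxp3 and Zbtb7b, which act in lineage choice, had 1, 1, 2, 1 and 1 urea-only regions within 100 kb. Of the nearest ones, the strongest stood 25.4 kb upstream of Runx3, at 23.0 and 21.8 and an AT content of 59.5%. The one nearest to Foxp3, the factor of regulatory T cells, was 17.8 kb upstream, at 10.4 and 8.06, and did not overlap a BUR. For Gata3 it was 34.0 kb upstream (7.95 and 6.50), for Zbtb7b 91.2 kb upstream (7.17 and 8.84), and for Runx1 75.7 kb downstream (8.89 and 9.31). The nearest standard-only regions of these genes were 0.612 kb from Gata3, 0.127 kb from Runx1, 0.162 kb from Runx3, 1.68 kb from Zbtb7b and 8.70 kb from Foxp3.

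**Figure D5:**
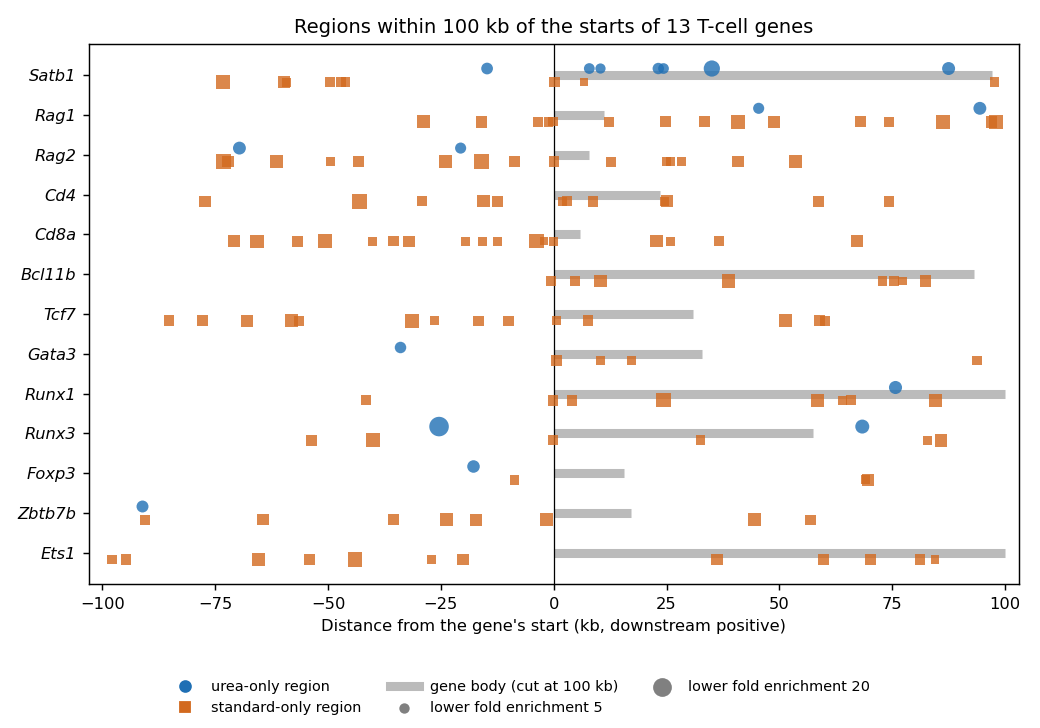
Urea-only (circles) and standard-only (squares) regions by distance from the start of 13 T-cell genes (x axis, kb, downstream of the start positive), with marker area growing with the lower of the 2 enrichments and gene bodies in grey up to 100 kb. Standard-only regions stand within 1 kb of 9 of the starts, and Cd4, Cd8a, Bcl11b, Tcf7 and Ets1 have no urea-only region in the window.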

How the data were processed

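Peak lists of 2 urea and 2 standard SATB1 ChIP-seq samples of thymocytes were compared, with the BUR, CTCF, brain and skin lists as further readouts. Per the methods and the submitters' processing notes, the authors mapped reads to mm9 with Bowtie2 2.3.1 and called peaks per sample with MACS2 2.2.7. The use of inputs in peak calling is not given in the sources used here. The deposited lists give each summit's fold enrichment over the local background, a ratio that is not scaled between samples. They also give the −log10 q of each peak as deposited by the authors. They hold no read counts, so the depth is unknown and no counting interval can be given.

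Overlapping peaks of the 2 lists of a method were merged, and regions sharing 1 bp with either list of the other method were left out. The code for this rule was tested on simulated data. Each region was placed by the summit of its more enriched peak or of either replicate, with start sites and genes from the GENCODE annotation of NCBIM37 and 22367 protein-coding genes. Unplaced sequences were left out of positional results, which removed 39 urea-only and 151 standard-only regions. A start site class reached 1 kb, the neighbourhood of a gene 10 kb, and sequence windows 150 bp on each side, with evenly spaced genome windows as background. Python 3.11.15, numpy 2.4.6, scipy 1.17.1, pysam 0.24.0 and matplotlib 3.10.9 were used.

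Named regions were the 5 of each set with the highest lower enrichment of the replicates. Named genes were up to 3 per list and set by the same measure, plus 13 genes that were always described. The members and gene lists were chosen with earlier results of these data known, and 5 listed symbols were not matched. Labels call the replicates separate samples and do not tie them to animals, so a p-value measures only the spread between these lists. Alternatives were a stricter −log10 q, other overlaps and gaps, equal list sizes, each list left out, other gene and start site definitions, whole regions and a replicate block. Satb1-/- and input libraries were not used here. Some named regions and genes are not reported here.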

Additional observations from a re-analysis of the deposited data

How the results depend on the processing

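Of 142 values under alternatives, 111 were counted as unchanged and 31 as moved. A share, AT content or distance counted as unchanged if it moved by no more than the spread between lists, pooled over both methods. A number of regions counted as unchanged within a fixed ratio, and a difference between methods if it kept its sign. For start site shares that spread was 3.92 points, so a urea-only share of 0.999% could hardly move, and 2.19% counted as unchanged. Urea-only TTAGGG counts were bound to stay at 0, as both urea lists held 0. The tally follows these limits and does not measure robustness. Of the differences between methods, 0 changed sign. At a −log10 q of at least 5, the median AT content of standard-only regions was 45.8%. With no peak of the other method within 1 kb, the urea-only distance to a start site was 112 kb and the share of T-cell genes with a urea-only region 29.2%. With equal list sizes, AT content was 69.4% (urea-only) and 45.3% (standard-only), and the shares of T-cell genes were 29.2% and 88.5%. Within 5 kb of a start site lay 6.67% and 48.5%. With start sites of all annotated genes, the distances were 46.1 kb and 2.675 kb and the shares at start sites 2.19% and 43.7%. Counting summits inside the gene gave 23.0% and 68.1% of T-cell genes, and 50 kb around it 64.6% and 97.3%. Over whole regions, AT content was 67.8% and 46.6%. Leaving out each list in turn gave 21351 to 47663 standard-only regions, with an AT content of 46.2% to 48.2%, 28% to 39.6% at start sites, a distance of 5.81 to 11.7 kb and 90.3% to 95.6% of T-cell genes. For urea-only regions it gave an AT content of 68.8% to 69.1% and 33.6% to 41.6% of T-cell genes. The highest number and distance and the lowest start site share came without standard replicate 2. Shares with TAATAA and counts of TTAGGG repeats were added after seeing the data: leaving out lists gave 87.8% to 88.7% of urea-only regions with TAATAA and 139 to 153 standard-only repeat regions. With the replicate block, the differences between methods were again 20.4 points of AT content, -30.7 points at start sites and 95.9 kb, with an exact two-sided sign permutation p of 0.5, the smallest that 2 pairs allow. The lists share only a number, and 2 pairs are too few to check the pairing. The causes of these moves were not tested.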

Other observations

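Large families of chemosensory receptor genes had few standard-only regions. Of 1113 olfactory receptor genes, which are short and stand in clusters, 455 (40.9%) had a urea-only region in the gene or within 10 kb and 35 (3.14%) had a standard-only region, against 30.0% and 55.9% of all protein-coding genes. Of 327 vomeronasal receptor genes, 91 (27.8%) had a urea-only and 5 (1.53%) a standard-only region. Neighbouring genes of these clusters can count the same region. Of 150 ribosomal protein genes, 29 (19.3%) had a urea-only and 99 (66.0%) a standard-only region, and of 370 zinc finger genes named Zfp, 87 (23.5%) and 250 (67.6%).

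The 10 genes with the most urea-only regions inside them, listed after their values were seen, all spanned over 1000 kb and held 39 to 55 each. Ptprd, a receptor phosphatase gene, held 55 urea-only and 0 standard-only regions over 2271 kb, Lrp1b held 54 and 1 over 2058 kb, Cntnap2, an adhesion gene, held 51 and 1 over 2241 kb, and Csmd3 held 50 and 0 over 1211 kb. Among the others, Fam190a held 43, and Dmd, the dystrophin gene, and Sgcz held 41 each. For the 4 with the most, this was 24.2, 26.2, 22.8 and 41.3 urea-only regions per Mb, against 12.3 per Mb over the genome and 23.2 in 1 Mb bins with no protein-coding gene.

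The 139 standard-only regions with at least 4 TTAGGG units also appeared in urea lists of another tissue. The skin CTCF list overlapped 137 of them, and the skin SATB1 lists overlapped 131 and 126. The thymocyte CTCF list overlapped 2, the brain SATB1 lists 1 and 2, and the BUR reference map 19. The repeat was chosen after its sequence was seen, and what separates these lists was not tested.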
